A study of Mus musculus with 18 samples.

Results

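The machinery that brings secretory and membrane proteins into the endoplasmic reticulum (ER), cuts off their signal peptides and attaches N-glycans was examined through 35 genes, listed by name for their known roles, though with earlier results of these data known. They belong to the signal recognition particle (SRP) and its receptor, the Sec61 channel and its partners, the translocon-associated protein (TRAP) complex, the signal peptidase complex and the oligosaccharyltransferase (OST). Of these, 33 were among the 7794 genes with reads in all 18 libraries, of 17207 genes with reads in any. The libraries came from MIN6, a mouse insulinoma line used as a model of the pancreatic β-cell, so they hold 1 tumour-derived line and no primary islets. Cells received DMSO for 18 h (control), 200 µM cyclopiazonic acid (CPA) for 1 h (CPA1, acute stress) or 200 µM CPA for 18 h (CPA18, chronic stress), in 3 independent experiments. CPA blocks the SERCA pump that fills the ER with calcium, and depletion of ER calcium is a standard way to provoke ER stress. Poly(A) mRNA (mRNA-seq) and ribosome-protected fragments (Ribo-seq) were sequenced from each, and ribosome occupancy is the ratio of the latter to the former.

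As a secretory protein starts to emerge from the ribosome, SRP binds its signal sequence, slows elongation and docks the ribosome on the SRP receptor at the ER membrane. The chain then enters the lumen through Sec61, the signal peptidase cleaves the signal sequence, and OST transfers a preassembled glycan to asparagine residues. OST exists in alternative forms, one built on STT3A and bound to the translocon, the other built on STT3B and able to glycosylate sites that the first has missed. Preproinsulin, the main product of the β-cell, enters the ER by this route and carries no N-glycan.

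Library totals ran from 168129 to 4755030 reads, with the CPA18 Ribo-seq libraries of experiments 1 (168129 reads) and 2 (203108 reads) the shallowest. All 11 β-cell markers had mRNA reads in each treatment, and the acinar, duct, fibroblast, macrophage and endothelial lists each summed to at most 3.25 RPKM (reads scaled to transcript length and library total) in any mRNA-seq library. The delta and PP lists summed to at most 8.56 and 7.31 RPKM. The alpha-cell list, most of it Ttr, which is also known from other islet cells, ran from 949 to 2626 RPKM in control and from 149.9 to 403 RPKM after CPA18. The summed β-cell markers, insulin included, ran from 155159 to 457661 RPKM in control and from 42695 to 131506 RPKM after CPA18. Reads on Lars2 took between 4.75% and 54.8% of an mRNA-seq library, and the insulin genes Ins1 and Ins2 took 15.0% ± 7.49 of mRNA-seq reads in control and 3.81% ± 2.06 after CPA18 (SD, n = 3). Since every value is a share of its library, these shares enter all values, and their part in the results was not tested beyond the rescaling given below. The control mRNA-seq library of experiment 1 correlated less with the other control mRNA-seq libraries (mean r = 0.784 across genes) than with the control Ribo-seq libraries (mean r = 0.822), and 2 control libraries of experiment 2 have titles and descriptions that name different assays and were placed by title. In such bulk samples, fewer cells of a type and less RNA per cell cannot be told apart.

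After 18 h of CPA most of the machinery had risen, in mRNA and on ribosomes alike. In mRNA-seq, 21 of the 33 members rose against control and none fell, by edgeR's quasi-likelihood test with the experiment as a block and Benjamini-Hochberg adjustment over 7794 genes at 0.05. Of all genes tested, 25.9% rose by the same rule. The median log2 change was 1.07 for the members and 0.36 for all genes, so the median gene also rose as a share of its library. Of the 7794 genes, 599 were called lower. In Ribo-seq, 25 members rose, against 24.6% of all genes, and 2 fell, against 6.35%. There the median log2 change was 0.75 for the members and 0.39 for all genes. Together the 35 genes took 0.588%, 0.858% and 1.12% of control mRNA-seq reads in experiments 1, 2 and 3, and 0.962%, 2.04% and 2.12% after CPA18. Their share of Ribo-seq reads went from 1.16%, 1.04% and 1.33% to 1.89%, 1.92% and 1.95%. The members' share was higher after CPA18 than in the control of the same experiment in all 3 experiments and both assays, and in Ribo-seq the groups did not overlap.

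The mRNA calls rested on comparing libraries within an experiment. Without the block, 1 of 33 members (Srp9, adjusted p = 0.0401) was called in mRNA-seq and 21 in Ribo-seq, all higher. The RPKM of the 3 CPA18 and the 3 control libraries did not overlap for 13 of 33 members in mRNA-seq, all higher, while 20.1% of all genes did not overlap in either direction. In Ribo-seq the groups were apart for 23 members that were higher and 2 that were lower, against 38.0% of all genes. When library totals were taken without Lars2 and the insulin genes, a choice made after seeing the data, 22 members rose in mRNA-seq (20.8% of all genes) and 18 in Ribo-seq (16.9%). With the 2 control libraries of experiment 2 whose labels disagree exchanged, 17 members were called in mRNA-seq, but only 5 of the 27 called in Ribo-seq were kept (Srp9, Srprb, Sec61b, Serp1 and Ssr3), and Srp14, Sec61a1, Rpn1, Rpn2, Ostc, Tusc3 and Krtcap2 were among the 22 lost. As placed by title, these libraries correlated more with the other control libraries of their own assay (mean r = 0.863 for mRNA-seq and 0.946 for Ribo-seq) than with those of the other (0.705 and 0.736). Under each of 6 ways of scaling the libraries, 18 members were called higher in mRNA-seq, and 12 higher and 2 lower in Ribo-seq. The 6 include the total count of the main fit, TMM factors, centring on the median gene, and totals without Ins1 and Ins2 or also without Lars2. DESeq2 is counted among them and differs in its test as well as its scaling. The share of all genes called was not counted without the block, with the libraries exchanged or under all 6 scalings. Whether the members lost calls more often than other genes there is therefore not known.

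**Figure D1:**
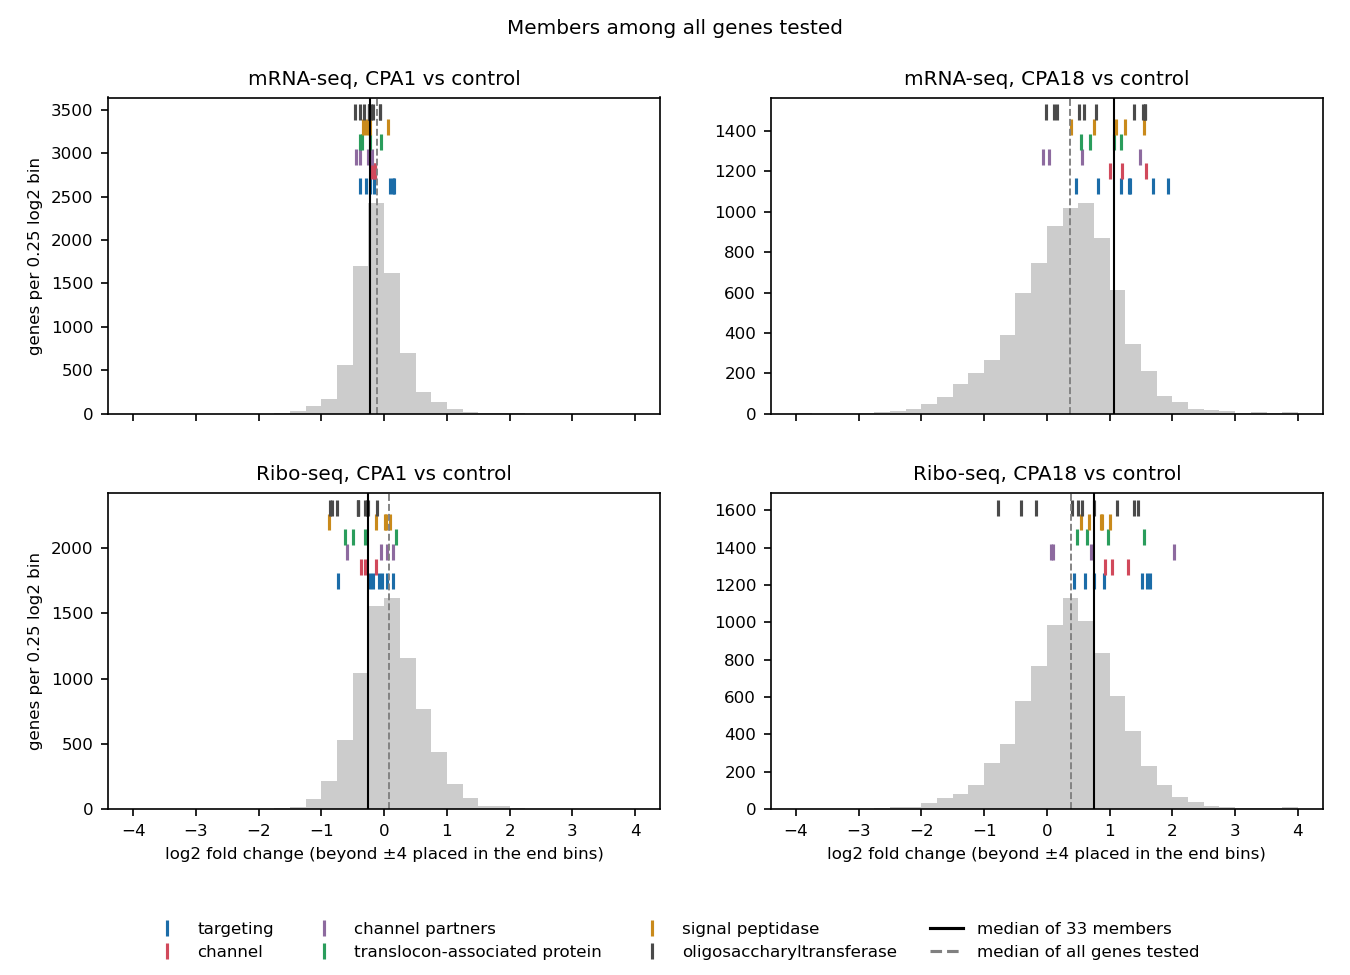
Log2 fold change of CPA1 and CPA18 against control (x axis) for all 7794 genes tested (grey bars, genes per bin) and for the 33 members (coloured ticks, by role), with the median of the members (solid line) and of all genes (dashed line). After CPA18 the members' median lies to the right of that of all genes in both assays (1.07 against 0.36 in mRNA-seq, 0.75 against 0.39 in Ribo-seq).

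Among the SRP and SRP receptor genes, 5 of 7 tested members rose in mRNA-seq and 6 of 7 in Ribo-seq after CPA18, with no decrease. Srp9 and Srp14, whose products form the part of SRP that slows elongation, and Srprb, the membrane-anchored receptor subunit, moved most among the 7 tested. In experiments 1, 2 and 3, Srp9 mRNA stood at 40.1, 24.1 and 32.9 RPKM in control, 29.4, 26.2 and 45.7 after CPA1 and 99.8, 128 and 126 after CPA18. The CPA18 libraries lay above all others, a log2 change of 1.93 ± 0.29 against control (SE, n = 3 per group; adjusted p = 6.84e-08), or 3.82-fold. On ribosomes Srp9 gave 28.1, 28.7 and 42.6 RPKM in control, 24.99, 12.8 and 21.4 after CPA1 and 107, 60.3 and 122 after CPA18. The 3 CPA1 libraries were the lowest and the 3 CPA18 libraries the highest, and the CPA18 change was 1.52 ± 0.28 on the log2 scale (adjusted p = 1.22e-06).

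Srp14 mRNA measured 77.7, 212 and 181 RPKM in control, 67.9, 104 and 186 after CPA1 and 207, 510.1 and 448 after CPA18, and rose by 1.32 ± 0.26 on the log2 scale (adjusted p = 2.78e-05). Here the CPA18 library of experiment 1 fell within the control range, although it was well above the control library of its own experiment. Ribo-seq reads on Srp14 were at 90.97, 121 and 98.2 RPKM in control, 63.4, 96.7 and 116 after CPA1 and 316, 349 and 313 after CPA18, with every CPA18 library above every other (log2 change 1.65 ± 0.23, adjusted p = 4.21e-11). Srprb rose by 1.70 ± 0.26 in mRNA-seq (adjusted p = 5.93e-08) and 1.60 ± 0.20 in Ribo-seq (adjusted p = 5.36e-13). Its partner Srpr, which binds SRP through a GTPase domain, rose by 1.32 ± 0.24 and 0.90 ± 0.19 (adjusted p = 9.09e-06 and 2.58e-05).

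The protein scaffold of the SRP S domain changed less. Srp68 rose in both assays, by 1.17 ± 0.25 in mRNA-seq (adjusted p = 0.000137) and 0.60 ± 0.19 in Ribo-seq (adjusted p = 0.0106). Its partner Srp72 did not pass the test: its mRNA was at 30.9, 18.05 and 8.52 RPKM in control, 16.2, 13.8 and 13.8 after CPA1 and 32.2, 21.4 and 19.1 after CPA18 (log2 change 0.46 ± 0.29, adjusted p = 0.218). Its Ribo-seq level was 31.8, 24.2 and 49.2 RPKM in control, 50.8, 25.4 and 25.9 after CPA1 and 47.9, 39.6 and 53.1 after CPA18 (log2 change 0.43 ± 0.23, adjusted p = 0.133). The control and CPA18 libraries of Srp72 overlapped in both assays. Srp54a, the subunit that binds the signal sequence, passed the test in Ribo-seq (0.75 ± 0.21, adjusted p = 0.00328) but not in mRNA-seq (0.81 ± 0.36, adjusted p = 0.0694), where its control level was 5.85, 4.99 and 1.36 RPKM. Srp54b and Srp54c are close copies of it, and the short reads may have been split among them, which was not tested.

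Srp19, which helps to assemble SRP, had 0 reads in the control mRNA-seq library of experiment 1, where the limit of 3 reads corresponds to 5.76 RPM (reads scaled to library total), and was therefore outside the main test. Its mRNA counts were 0, 8 and 11 in control, 21, 12 and 18 after CPA1 and 43, 79 and 19 after CPA18. With genes at 0 reads kept in the test, its mRNA log2 change at CPA18 was 2.11 ± 0.46 (edgeR adjusted p = 0.00013), larger than that of Srp9, though with a library at 0 this value depends on the prior count. In Ribo-seq it had 8, 3 and 5 reads in control, 2, 5 and 8 after CPA1 and 7, 2 and 20 after CPA18, in libraries of lower depth. Scaled to depth, the CPA18 Ribo-seq libraries were at 46.9, 11.1 and 40.6 RPKM against 10.96, 3.63 and 5.19 in control (log2 change 2.30 ± 0.54, edgeR adjusted p = 0.000344 when genes with 0 reads were kept in the test).

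The CPA18 Ribo-seq libraries of Srp54a and Srp68 all lay above their control libraries, but the calls were lost with fewer libraries. Without experiment 1 the log2 change of Srp54a was 0.56 ± 0.27 (adjusted p = 0.128) and that of Srp68 0.50 ± 0.25 (adjusted p = 0.14). Without experiment 2 they were 0.66 ± 0.27 (adjusted p = 0.0674) and 0.56 ± 0.24 (adjusted p = 0.092). Both calls were also lost when the libraries were centred on the median gene (0.226 and 0.498).

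All 3 tested subunits of the Sec61 channel rose in both assays after CPA18 and under each of the 6 scalings. Sec61a1, the pore-forming subunit, had mRNA levels of 143, 195 and 301 RPKM in control, 136, 144 and 303 after CPA1 and 337, 729.7 and 881 after CPA18. Every CPA18 library was above every control library (log2 change 1.58 ± 0.25, adjusted p = 3.5e-07), though experiment 1 stood lowest in each treatment. In Ribo-seq Sec61a1 went from 256, 221 and 296 RPKM in control to 204, 180.2 and 238 after CPA1 and 554, 439 and 602 after CPA18 (log2 change against control 1.04 ± 0.16, adjusted p = 2.7e-09).

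Sec61b and Sec61g encode the small single-span subunits of the channel. For Sec61b, mRNA was at 344, 706 and 809 RPKM in control, 304, 512 and 809.5 after CPA1 and 662, 1636 and 1443 after CPA18 (log2 change 1.01 ± 0.24, adjusted p = 0.000648). Its Ribo-seq level was 865, 815 and 1074 RPKM in control, 757, 877 and 897 after CPA1 and 2157, 2631 and 2028 after CPA18 (log2 change 1.30 ± 0.16, adjusted p = 4.56e-13). The CPA18 and control libraries of Sec61b were apart in Ribo-seq and overlapped in mRNA-seq through experiment 1. Sec61g mRNA was at 161, 715 and 719 RPKM in control, 203, 410.4 and 756 after CPA1 and 501, 1608 and 1291 after CPA18 (log2 change 1.19 ± 0.25, adjusted p = 8.57e-05). Sec61g footprints measured 363, 394 and 475 RPKM in control, 304, 311 and 341 after CPA1 and 696, 796 and 847 after CPA18 (log2 change 0.92 ± 0.18, adjusted p = 3.4e-06). The pattern of overlap was the same as for Sec61b.

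The paralogue Sec61a2 was close to the limit of detection. Its mRNA stood at 2.46, 5.64 and 2.80 RPKM in control, 2.53, 1.91 and 2.62 after CPA1 and 4.40, 5.18 and 9.09 after CPA18, a small fraction of the Sec61a1 level in the same libraries. It had 0 Ribo-seq reads in the CPA1 libraries of experiments 1 and 2, where 3 reads correspond to 5.78 and 7.64 RPM. Reads that fit both paralogues would be counted for only 1 of them, and how many did is not known.

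The partners of the channel split. Serp1, also known as RAMP4, a small membrane protein that associates with the ribosome-bound channel, had mRNA levels of 74.99, 41.1 and 47.7 RPKM in control, 44.2, 42.5 and 52.5 after CPA1 and 139, 153 and 151 after CPA18. Its log2 change was 1.49 ± 0.25 (adjusted p = 1.53e-06). In Ribo-seq Serp1 was at 59.5, 69.2 and 99.6 RPKM in control, 57.2, 59.1 and 124 after CPA1 and 228, 367 and 333 after CPA18, a log2 change of 2.03 ± 0.18 (adjusted p = 3.87e-24) or 4.08-fold. The CPA18 libraries of Serp1 lay above all others in both assays, and its Ribo-seq change exceeded that of each other tested member.

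Sec62 and Sec63, which serve the post-translational route into Sec61, behaved otherwise. Sec62 mRNA was at 10.3, 7.68 and 2.38 RPKM in control, 6.32, 3.86 and 2.84 after CPA1 and 4.70, 7.97 and 4.05 after CPA18, with experiments 1 and 3 moving in opposite directions (log2 change −0.06 ± 0.35, adjusted p = 0.91). Its Ribo-seq level was 35.9, 38.5 and 31.2 RPKM in control, 37.5, 34.6 and 28.8 after CPA1 and 33.8, 47.03 and 32.1 after CPA18 (log2 change 0.11 ± 0.23, adjusted p = 0.768). Neither assay separated the groups. Sec63 passed the test in Ribo-seq (0.70 ± 0.23, adjusted p = 0.0134) but not in mRNA-seq (0.03 ± 0.31, adjusted p = 0.956). That call was lost without experiment 1, where the CPA18 library was at 47.5 RPKM (log2 change 0.22 ± 0.30, adjusted p = 0.647). It was also lost without experiment 2 (0.62 ± 0.29, adjusted p = 0.1275) and under centring and DESeq2. In experiment 3 Sec63 footprints went down, from 24.3 RPKM in control to 20.1 after CPA18.

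Tram1, a multispan protein next to the channel, had mRNA levels of 115, 82.02 and 73.1 RPKM in control, 82.5, 59.1 and 82.6 after CPA1 and 127, 122 and 140.4 after CPA18 (CPA18 log2 change 0.55 ± 0.24, adjusted p = 0.0655). The CPA18 libraries were above the control libraries, yet the change did not pass the test with the total count as library size. It did with Ins1, Ins2 and Lars2 out of the totals (0.36, adjusted p = 0.0346). Tram1 footprints measured 162, 127 and 219.9 RPKM in control, 121, 101 and 107 after CPA1 and 158, 154 and 213 after CPA18. They were lowest in the CPA1 libraries, and the CPA18 and control groups overlapped (log2 change 0.06 ± 0.17, adjusted p = 0.814).

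**Figure D2:**
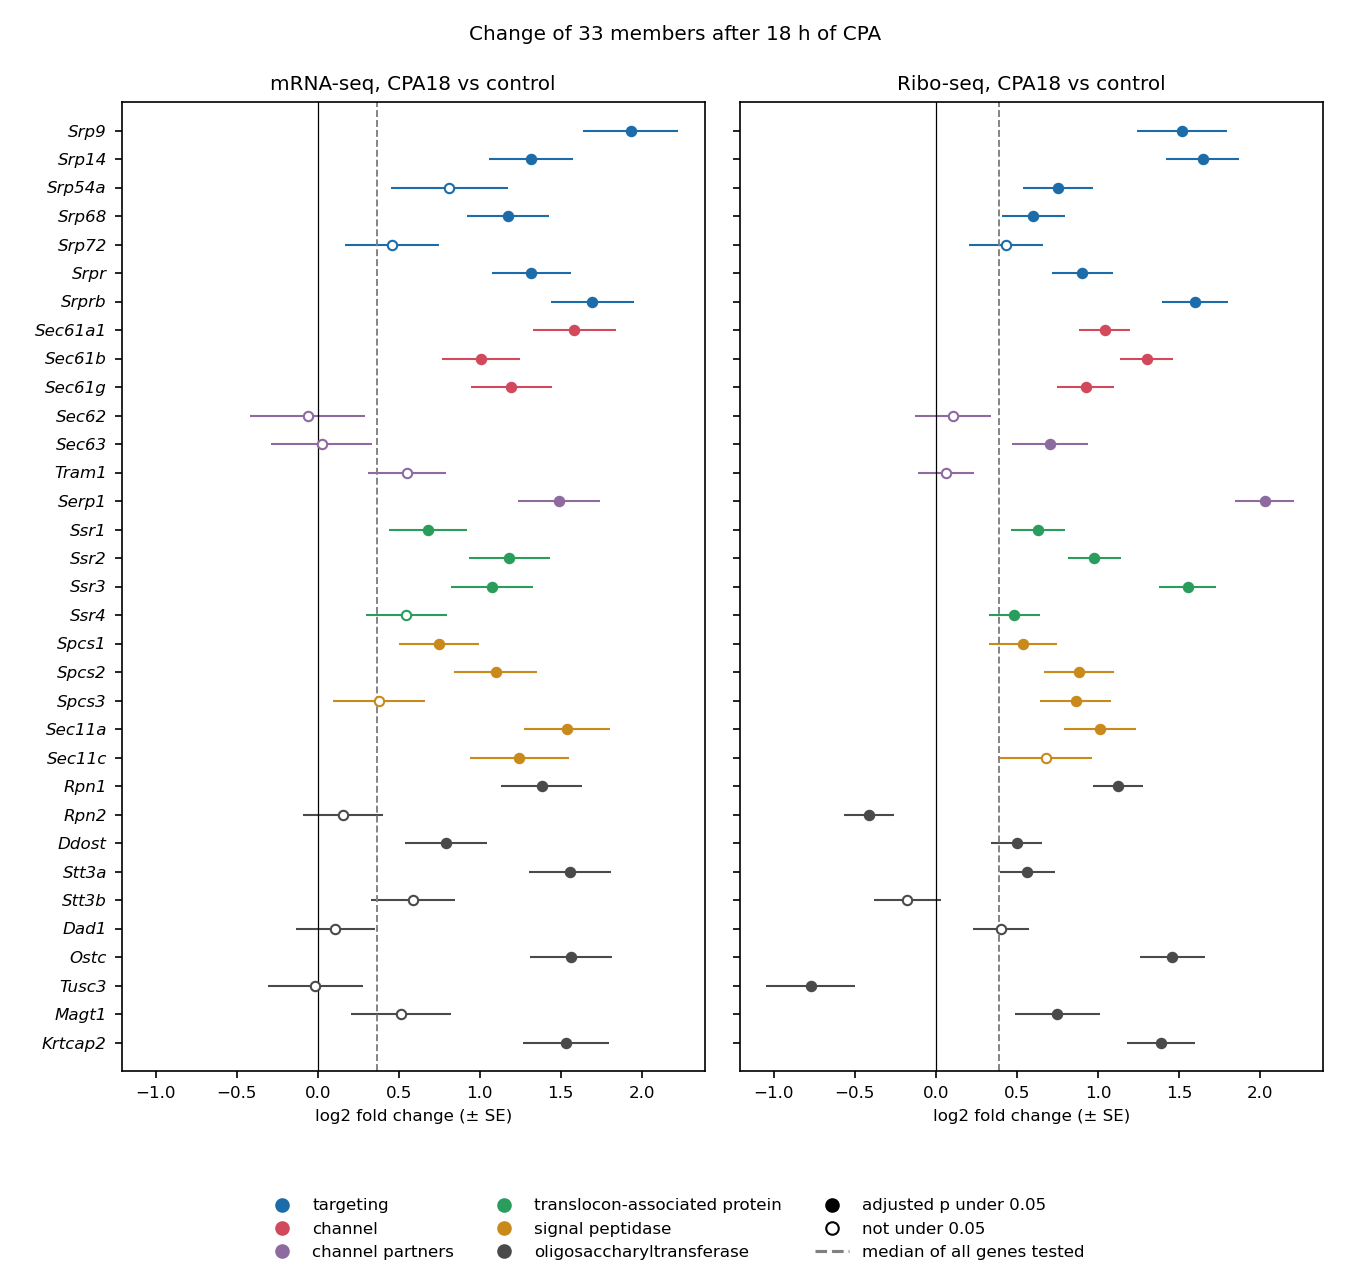
Log2 fold change of CPA18 against control with its SE (x axis) for each of the 33 tested members (y axis, coloured by role) in mRNA-seq (left) and Ribo-seq (right); filled points have an edgeR adjusted p under 0.05, and the dashed line is the median of all genes tested. Serp1 lies farthest right in Ribo-seq (2.03), while Rpn2 (−0.41) and Tusc3 (−0.77) are the filled points left of 0.

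The TRAP complex, which binds the channel and helps chains with weak signal sequences to enter, rose as 3 of 4 members in mRNA-seq and 4 of 4 in Ribo-seq after CPA18. Ssr2 mRNA was at 232, 433 and 783 RPKM in control, 164, 312 and 675 after CPA1 and 439, 1352 and 1472 after CPA18 (log2 change 1.18 ± 0.25, adjusted p = 9.49e-05). Footprints on Ssr2 were at 443, 481 and 618 RPKM in control, 356, 363 and 534 after CPA1 and 820.2, 1127 and 1100.1 after CPA18 (log2 change 0.98 ± 0.16, adjusted p = 8.87e-08). Its groups overlapped in mRNA-seq, where the libraries of experiment 1 were low throughout, and were apart in Ribo-seq.

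Ssr3 gave the largest Ribo-seq change of the complex. Its mRNA stood at 65.9, 36.9 and 27.5 RPKM in control, 50.1, 36.4 and 32.8 after CPA1 and 96.6, 83.5 and 76.3 after CPA18 (log2 change 1.07 ± 0.25, adjusted p = 0.000509). In Ribo-seq it was at 97.9, 73.5 and 74.6 RPKM in control, 107, 72.4 and 101 after CPA1 and 276, 209.9 and 235 after CPA18 (log2 change 1.55 ± 0.18, adjusted p = 1.17e-15). In Ribo-seq each CPA18 library of Ssr3 was above all control and CPA1 libraries, and in mRNA-seq the CPA18 and control groups did not overlap either.

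Ssr4 had the highest RPKM of all members in control and the smallest change of its complex. Its mRNA was at 465, 1183 and 1390.4 RPKM in control, 382, 736 and 1569.7 after CPA1 and 612, 2036 and 1836 after CPA18 (log2 change 0.55 ± 0.25, adjusted p = 0.0791). Its footprints were at 1201, 945 and 1104 RPKM in control, 775, 564 and 776 after CPA1 and 1811, 1319 and 1438 after CPA18 (log2 change 0.48 ± 0.16, adjusted p = 0.0113). In Ribo-seq the order was CPA1, control, CPA18 with no overlap. Ssr1, the signal-sequence-binding subunit, showed the same order there, with 71.5, 71.8 and 95.1 RPKM in control, 56.7, 56.6 and 55.9 after CPA1 and 121, 139.8 and 108 after CPA18 (log2 change of CPA18 0.63 ± 0.17, adjusted p = 0.00131). Its mRNA was at 45.6, 42.1 and 45.6 RPKM in control, 27.5, 31.2 and 46.96 after CPA1 and 62.5, 77.2 and 75.4 after CPA18 (log2 change 0.68 ± 0.24, adjusted p = 0.0206).

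For Ssr1 and Ssr4 the calls against control were the less stable ones. Without experiment 1 or 3 the mRNA-seq adjusted p of Ssr1 was 0.058 or 0.232, and without experiment 2 its Ribo-seq adjusted p was 0.112. The Ribo-seq adjusted p of Ssr4 was 0.127 without experiment 1 and 0.0862 without experiment 2, and the mRNA-seq adjusted p of Ssr3 was 0.115 without experiment 3. Centred on the median gene, neither Ssr1 (0.37) nor Ssr4 (0.82) was called in Ribo-seq.

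Of the 5 signal peptidase genes, 4 rose in each assay after CPA18. Of these calls, only those of Spcs2, Sec11a and Sec11c in mRNA-seq held under each of the 6 scalings. No Ribo-seq call of a signal peptidase gene did. Those of Spcs1, Spcs2 and Spcs3 were lost under centring on the median gene and DESeq2, and that of Sec11a under DESeq2. Sec11a and Sec11c encode alternative catalytic subunits. Sec11a mRNA stood at 41.4, 86.3 and 95.1 RPKM in control, 52.05, 71.9 and 105 after CPA1 and 123, 289 and 237 after CPA18, with the CPA18 libraries above all control libraries (log2 change 1.54 ± 0.27, adjusted p = 1.85e-06). Sec11c mRNA was at 29.9, 45.8 and 86.8 RPKM in control, 27.7, 36.9 and 74.1 after CPA1 and 67.97, 154 and 147 after CPA18 (log2 change 1.25 ± 0.30, adjusted p = 0.000795). The 2 mRNAs thus rose by amounts that differed by less than the sum of their SEs.

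In Ribo-seq Sec11a was at 71.1, 129.5 and 91.2 RPKM in control, 123, 86.96 and 95.5 after CPA1 and 230.0, 226 and 151 after CPA18 (log2 change 1.01 ± 0.22, adjusted p = 7.15e-05). Sec11c was at 74.3, 68.5 and 86.3 RPKM in control, 40.04, 13.2 and 71.8 after CPA1 and 100.5, 134 and 138 after CPA18 (log2 change 0.68 ± 0.29, adjusted p = 0.0581). Its CPA18 libraries lay above the control ones, but the change did not pass the test, and its CPA1 library of experiment 2 held only 4 reads.

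Spcs1, Spcs2 and Spcs3 encode the accessory subunits. Spcs2 rose by 1.10 ± 0.25 in mRNA-seq (adjusted p = 0.00039) and 0.88 ± 0.22 in Ribo-seq (adjusted p = 0.000506). Spcs3 mRNA was at 32.5, 14.8 and 13.2 RPKM in control, 22.1, 11.2 and 13.8 after CPA1 and 29.1, 23.7 and 19.5 after CPA18 and did not pass the test (log2 change 0.38 ± 0.29, adjusted p = 0.312), with experiment 1 moving down. Its footprints, at 36.4, 29.7 and 36.6 RPKM in control, 41.5, 22.7 and 40.9 after CPA1 and 78.6, 53.7 and 59.1 after CPA18, rose in each experiment (log2 change 0.86 ± 0.22, adjusted p = 0.000742).

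Spcs1 showed the smallest Ribo-seq change of the complex. Its mRNA measured 113, 239 and 254 RPKM in control, 88.3, 147 and 293 after CPA1 and 155, 469 and 418 after CPA18 (log2 change 0.75 ± 0.25, adjusted p = 0.0141). Its Ribo-seq level was 112, 161 and 185 RPKM in control, 156, 142 and 112 after CPA1 and 192, 217 and 249 after CPA18 (log2 change 0.54 ± 0.21, adjusted p = 0.0365). The Ribo-seq call was lost without any 1 of the 3 experiments (adjusted p = 0.224, 0.108 and 0.0854), and in mRNA-seq the calls of Spcs1 and Spcs2 were lost without experiment 3 (0.183 and 0.0564).

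The 10 OST genes were the most divided group. In mRNA-seq 5 rose and 5 did not pass the test, and in Ribo-seq 6 rose, 2 fell and 2 did not pass. The members that rose in both assays were Rpn1, Ddost, Stt3a, Ostc and Krtcap2, and Ostc and Krtcap2 are known as subunits of the STT3A form. Ostc mRNA was at 107, 160.3 and 244 RPKM in control, 73.9, 87.4 and 223 after CPA1 and 273, 626 and 582 after CPA18 (log2 change 1.56 ± 0.25, adjusted p = 4.12e-07). In Ribo-seq it measured 119, 99.5 and 155 RPKM in control, 114, 91.9 and 96.3 after CPA1 and 396, 305 and 336 after CPA18 (log2 change 1.46 ± 0.20, adjusted p = 4.05e-11). CPA18 libraries of Ostc lay above all control and CPA1 libraries in both assays.

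Krtcap2 mRNA was at 87.7, 216 and 209 RPKM in control, 72.8, 124 and 213 after CPA1 and 197, 688 and 664 after CPA18, a change of 1.53 ± 0.26 on the log2 scale (adjusted p = 1.94e-06). Krtcap2 footprints were at 208, 179 and 255 RPKM in control, 103, 145 and 118 after CPA1 and 470.4, 773 and 494 after CPA18 (log2 change 1.39 ± 0.21, adjusted p = 2.62e-09). All CPA1 libraries lay below, and all CPA18 libraries above, the control range in Ribo-seq. Rpn1 (ribophorin I), a subunit of both forms, rose by 1.38 ± 0.25 in mRNA-seq and 1.12 ± 0.16 in Ribo-seq (adjusted p = 6.23e-06 and 7.6e-11). Ddost, also shared by both, rose by 0.79 ± 0.25 and 0.50 ± 0.16 (adjusted p = 0.0101 and 0.00763). The mRNA-seq call of Ddost was lost without experiment 1 (0.102) or 3 (0.0883), and its Ribo-seq call without experiment 2 (0.201). Both calls of Ddost were also lost under TMM, centring on the median gene, DESeq2 and totals without Ins1 and Ins2. The exchange of the disputed control libraries lost both as well.

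Stt3a and Stt3b encode the alternative catalytic subunits, and a direct comparison of them follows with the paralogue ratios. Stt3a mRNA was at 30.7, 29.5 and 36.5 RPKM in control, 23.3, 22.2 and 50.5 after CPA1 and 62.4, 116 and 108 after CPA18, and the CPA18 libraries stood clear of the others (log2 change 1.56 ± 0.25, adjusted p = 4.36e-07). Its Ribo-seq level was 70.02, 59.2 and 75.6 RPKM in control, 57.04, 65.8 and 49.4 after CPA1 and 115, 100. and 91.7 after CPA18 (log2 change 0.56 ± 0.17, adjusted p = 0.00612). That Ribo-seq call was lost without experiment 1 (0.0987) or 2 (0.112) and under centring (0.567). Stt3b mRNA was at 37.1, 16.9 and 23.9 RPKM in control, 24.97, 17.1 and 21.4 after CPA1 and 41.04, 31.1 and 39.2 after CPA18 (log2 change 0.59 ± 0.26, adjusted p = 0.0696). Footprints on Stt3b stood at 53.8, 40.4 and 63.6 RPKM in control, 37.7, 25.5 and 29.5 after CPA1 and 43.3, 35.8 and 57.9 after CPA18 (log2 change −0.18 ± 0.21, adjusted p = 0.553), with control and CPA18 overlapping. When each library was centred on its median gene, Stt3b was lower in Ribo-seq after CPA18 (−0.58, adjusted p = 0.0211).

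Tusc3 and Magt1 encode alternative oxidoreductase subunits of the STT3B form. Tusc3 mRNA was at 14.1, 20.1 and 22.7 RPKM in control, 13.7, 10.4 and 27.3 after CPA1 and 15.7, 18.6 and 21.6 after CPA18, with overlapping groups (log2 change −0.01 ± 0.29, adjusted p = 0.974). Tusc3 footprints measured 27.1, 28.00 and 42.5 RPKM in control, 22.6, 23.9 and 25.4 after CPA1 and 7.18, 21.5 and 26.02 after CPA18. Each CPA18 library was below each control library (log2 change −0.77 ± 0.27, adjusted p = 0.021), and the counts behind them were 4, 15 and 49 reads. Without experiment 1 the log2 change was −0.57 ± 0.32 (adjusted p = 0.193), and without experiment 3 it was −0.90 ± 0.38 (adjusted p = 0.0886). The Tusc3 call was also lost by limma, with 1 transcript per gene and with only transcripts that had reads in all libraries.

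Magt1 mRNA stood at 16.9, 6.54 and 6.03 RPKM in control, 11.5, 4.81 and 7.70 after CPA1 and 13.7, 14.4 and 8.73 after CPA18 (log2 change 0.51 ± 0.31, adjusted p = 0.196). Its footprints were at 19.1, 19.2 and 13.9 RPKM in control, 17.3, 10.9 and 10.95 after CPA1 and 45.4, 29.2 and 18.8 after CPA18, a rise of 0.75 ± 0.26 on the log2 scale (adjusted p = 0.0185). The highest control library was above the lowest CPA18 library by a small margin, and without experiment 1 or 2 the call was lost (adjusted p = 0.281 and 0.0594). Centring, DESeq2 and totals without Ins1 and Ins2 also lost it.

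Rpn2 (ribophorin II), a subunit of both OST forms, was the other member to fall. Its mRNA showed no separation, at 206, 321 and 454 RPKM in control, 163, 187 and 557 after CPA1 and 188, 412 and 522 after CPA18 (log2 change of CPA18 0.16 ± 0.25, adjusted p = 0.662). Its footprints were at 722, 629 and 743 RPKM in control, 362, 367 and 429 after CPA1 and 427, 591 and 559 after CPA18 (log2 change of CPA18 −0.41 ± 0.16, adjusted p = 0.0301). Both CPA groups lay below the control libraries in Ribo-seq. The CPA18 call was lost without experiment 1 (0.399) or 3 (0.0644), by limma and with 1 transcript per gene. Under centring the decrease was larger (−0.83, adjusted p = 2.62e-05). Dad1, the small subunit shared by both forms, passed in neither assay, with 0.11 ± 0.24 in mRNA-seq (adjusted p = 0.76) and 0.40 ± 0.17 in Ribo-seq (adjusted p = 0.0615).

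**Figure D3:**
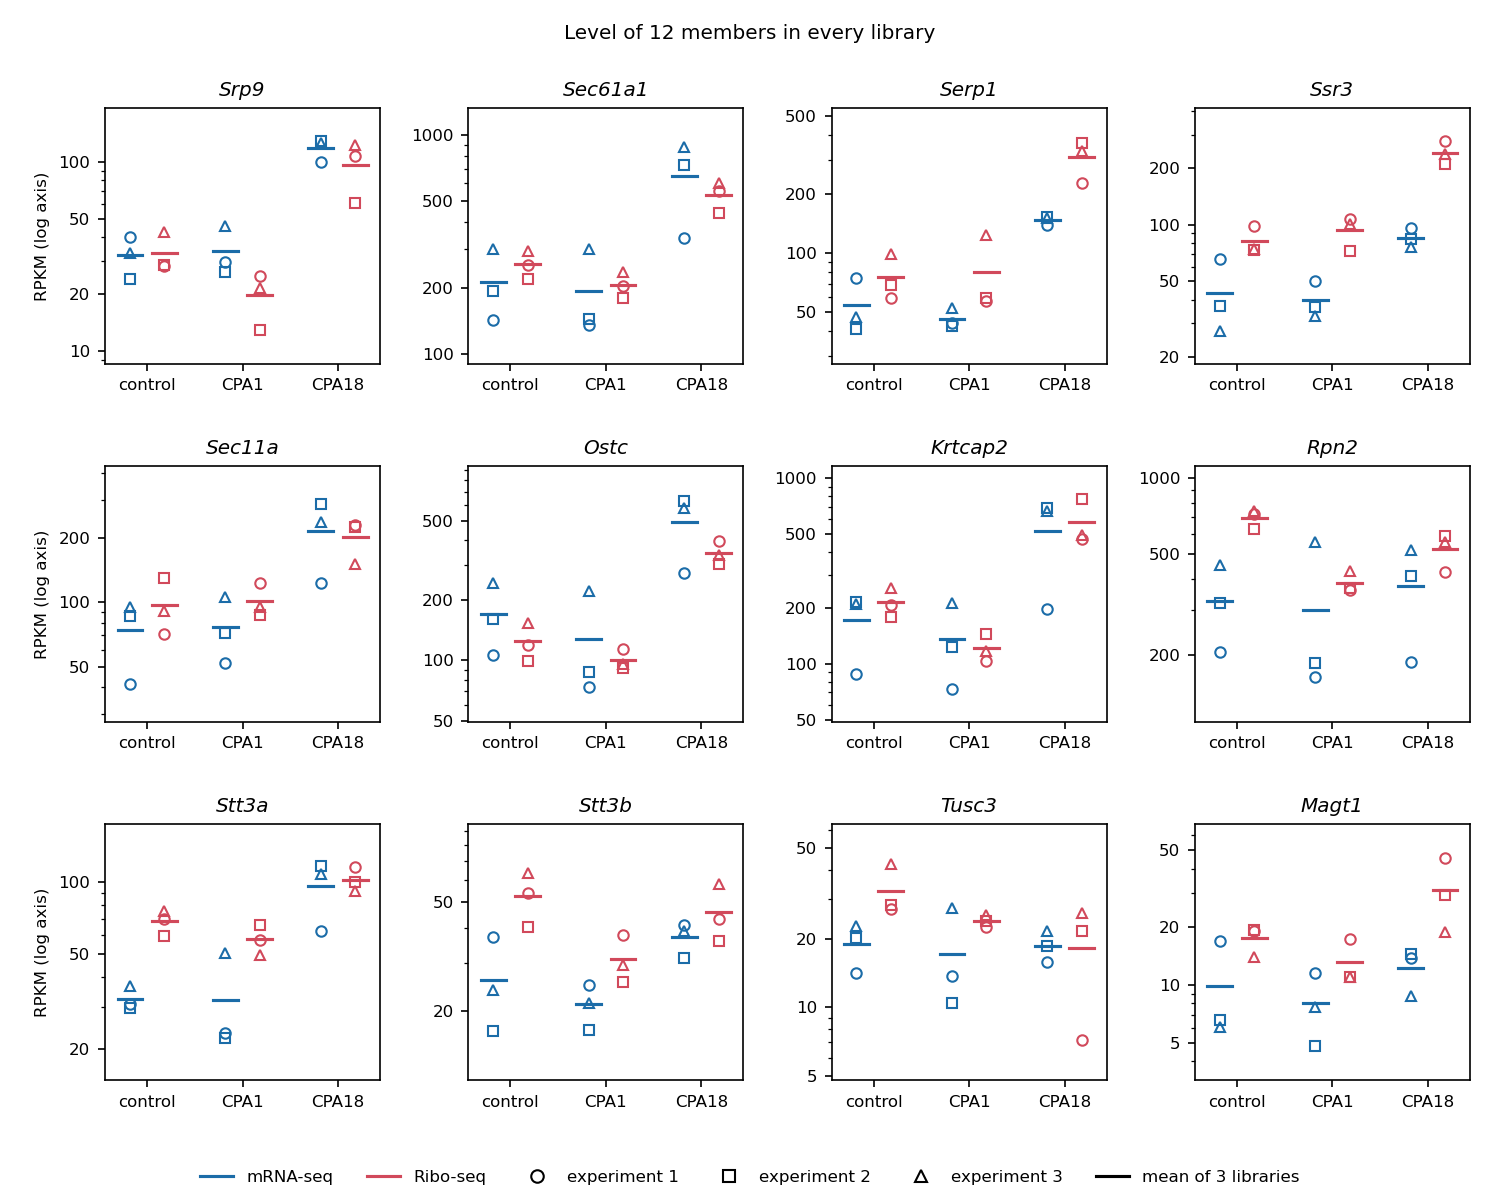
RPKM of 12 members (panels, log axis) in each library by treatment, for mRNA-seq (blue) and Ribo-seq (red); symbols mark the experiment and bars the mean of 3 libraries. Srp9, Serp1 and Ostc are above all control libraries after CPA18 in both assays, and Rpn2 and Tusc3 footprints are below all control libraries.

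Because a ratio of paralogues within a library does not depend on its total, the alternative subunits were also compared that way. The Stt3a to Stt3b ratio of RPKM in Ribo-seq was 1.30, 1.47 and 1.19 in control, 1.51, 2.58 and 1.67 after CPA1 and 2.65, 2.79 and 1.58 after CPA18, with all CPA18 libraries above all control libraries. In mRNA-seq it was 0.828, 1.75 and 1.53 in control and 1.52, 3.73 and 2.76 after CPA18, higher in each experiment but overlapping. For Tusc3 to Magt1 the Ribo-seq ratio was 1.42, 1.46 and 3.05 in control and 0.158, 0.738 and 1.38 after CPA18, again without overlap. The Sec11a to Sec11c ratio overlapped in both assays. Over these 6 comparisons of CPA18 with control, the smallest two-sided exact permutation p was 0.1, for Stt3a to Stt3b and Tusc3 to Magt1 in Ribo-seq, which is the smallest that 3 against 3 libraries can give, and the adjusted p of both was 0.3.

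**Figure D4:**
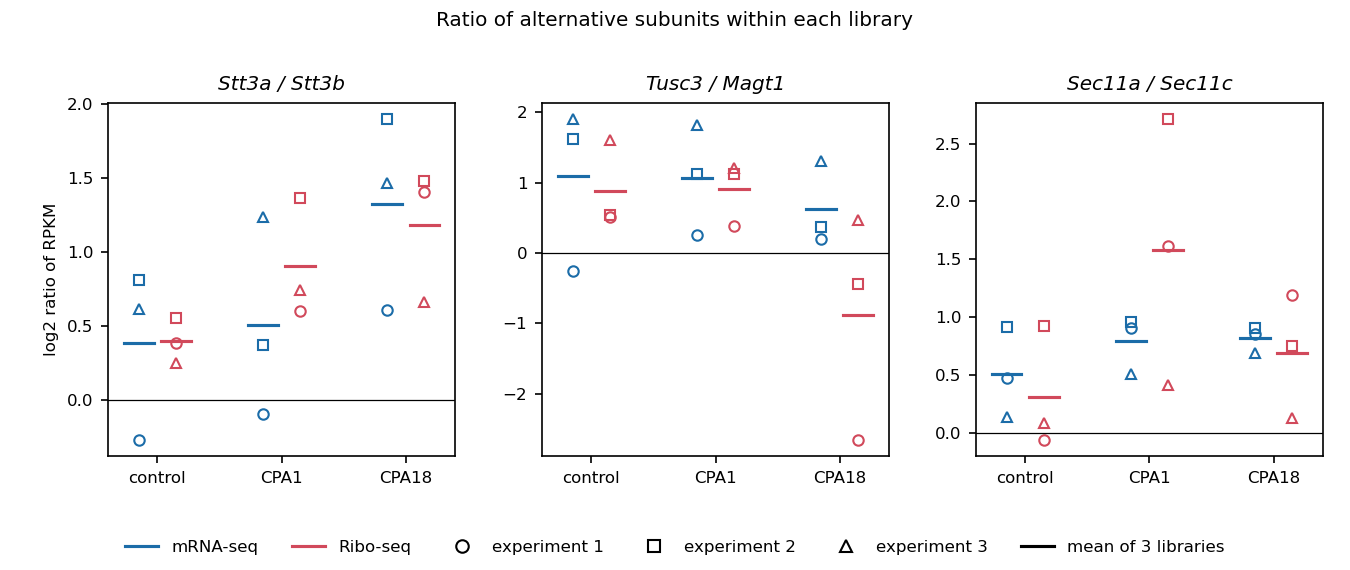
Log2 ratio of the RPKM of alternative subunits within each library (y axis) by treatment, for mRNA-seq (blue) and Ribo-seq (red), with symbols for the experiments and bars for the mean of 3 libraries. After CPA18 the Ribo-seq ratio of Stt3a to Stt3b lies above, and that of Tusc3 to Magt1 below, all control values.

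After 1 h of CPA no member was called in mRNA-seq. By edgeR 0 of 33 passed the adjusted threshold and 0 had an unadjusted p under 0.05, while 0.719% of all genes were called. At so low a share, 0 calls among 33 members do not set them apart from other genes. DESeq2 and limma also called 0. The log2 changes of the members lay between −0.46 (Ostc and Sec62) and 0.15 (Srp54a), with a median of −0.23 against −0.12 for all genes. Of the 33 changes, 4 were above 0.

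On ribosomes after 1 h of CPA, 27 of the 33 members were not called and none was called higher. Of all 7794 genes, 290 were called higher, so few that 0 of 33 does not set the members apart. The other 6 members were called lower, against 2.78% of all genes. They were Tram1 (−0.60 ± 0.17, adjusted p = 0.0132), Ssr1 (−0.50 ± 0.17, adjusted p = 0.0486), Ssr4 (−0.63 ± 0.16, adjusted p = 0.00309), Rpn2 (−0.86 ± 0.15, adjusted p = 3.58e-06), Stt3b (−0.76 ± 0.20, adjusted p = 0.00561) and Krtcap2 (−0.83 ± 0.23, adjusted p = 0.0108). For each of them the 3 CPA1 libraries lay below the 3 control libraries, as the values above show. The members' median log2 change was −0.26, while that of all genes was 0.07, and 17 of 33 members were lower in all 3 experiments, against 16.8% of all genes.

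All 6 calls held under each of the 6 scalings, with 6 to 8 members called. They were less stable to the libraries used. Rpn2 alone was called without each experiment in turn and without the block (adjusted p = 0.00314), and limma called none of the 6. Without experiment 3 the adjusted p was 0.258 for Tram1, 0.268 for Ssr1, 0.121 for Stt3b and 0.189 for Krtcap2. Without experiment 2 that of Ssr4 was 0.13, and without experiment 1 it was 0.0721. If the 2 control libraries of experiment 2 whose labels disagree were exchanged, none of the 6 was called.

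**Figure D5:**
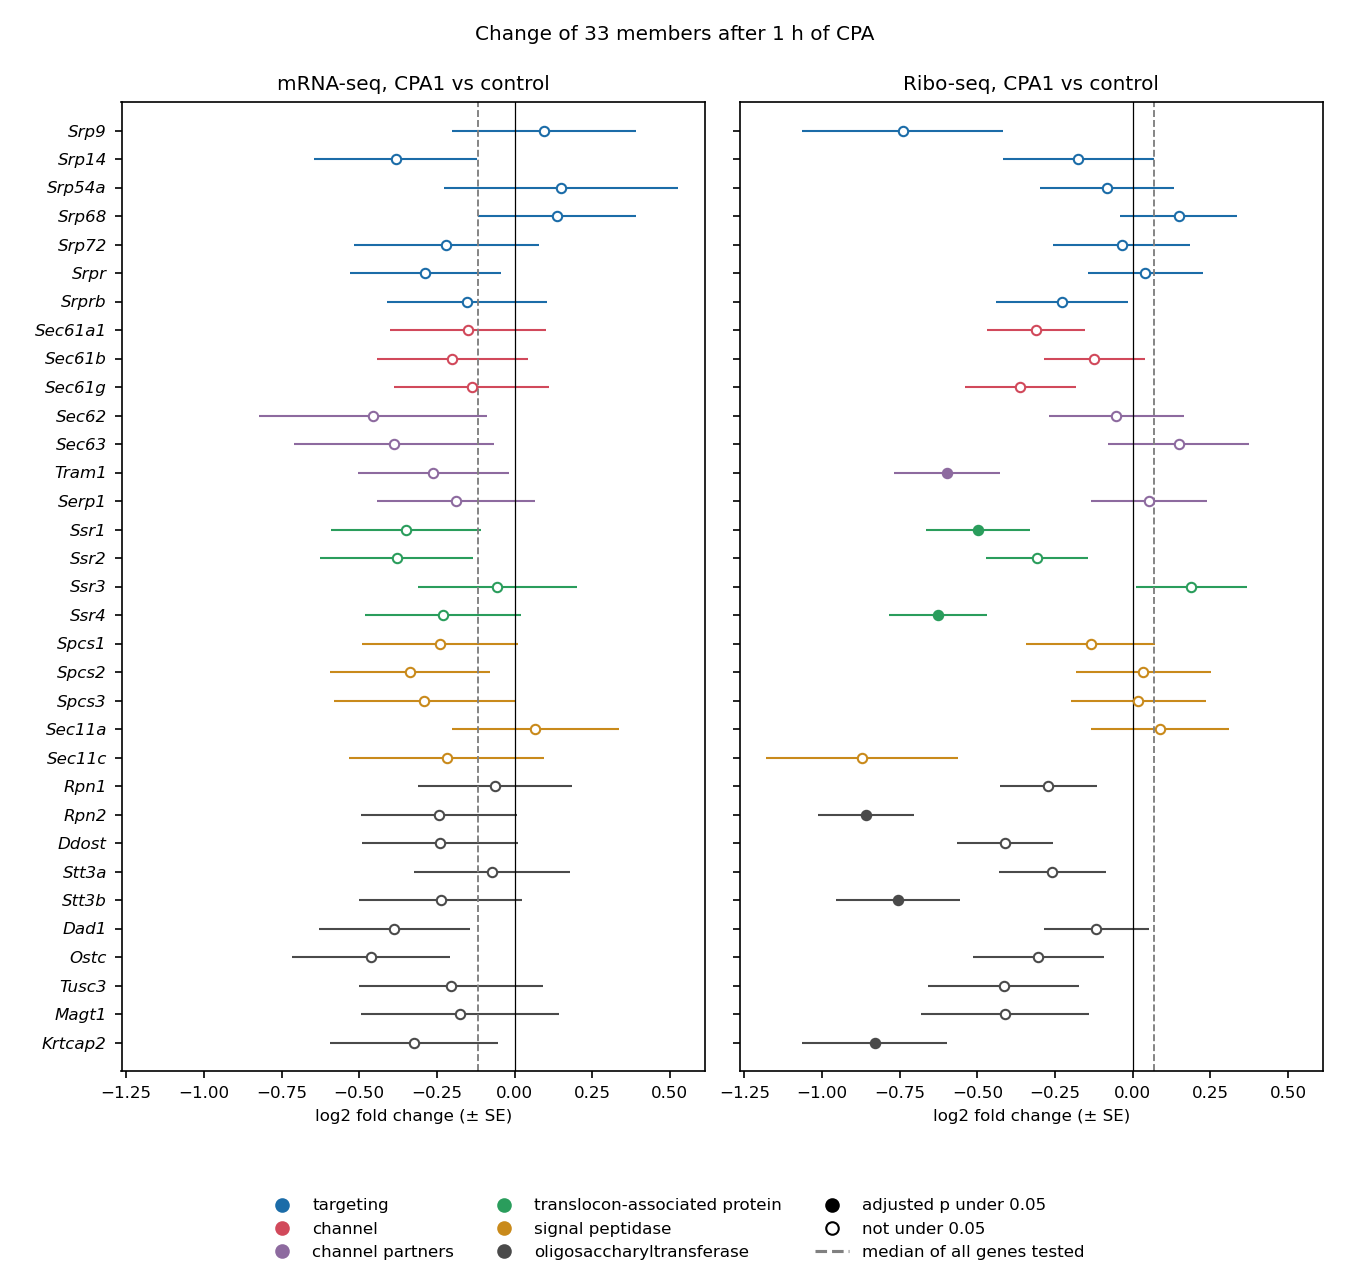
Log2 fold change of CPA1 against control with its SE (x axis) for each of the 33 tested members (y axis, coloured by role) in mRNA-seq (left) and Ribo-seq (right); filled points have an edgeR adjusted p under 0.05, and the dashed line is the median of all genes tested. No point is filled in mRNA-seq, and the 6 filled points in Ribo-seq lie between −0.50 (Ssr1) and −0.86 (Rpn2).

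From acute to chronic stress most members rose. Comparing CPA18 with CPA1 directly, 24 of 33 rose in mRNA-seq, against 31.9% of all genes. In Ribo-seq 28 of 33 rose, against 1323 of all 7794 genes (22.5% of all genes changed in either direction). No member was called lower in either assay, and in Ribo-seq 32 of the 33 log2 changes were above 0. This comparison shares its CPA18 and CPA1 libraries with the comparisons against control, which in turn share the control libraries, so none of the 3 is separate evidence for another. Its largest Ribo-seq changes were Srp9 (2.26 ± 0.33, adjusted p = 3.24e-10) and Krtcap2 (2.22 ± 0.24, adjusted p = 1.71e-17), and in mRNA-seq it was Ostc (2.03 ± 0.26, adjusted p = 1.72e-10). The 6 members called lower on ribosomes at 1 h were all called higher here, and their low CPA1 values enter both comparisons. Tram1 (0.66 ± 0.18, adjusted p = 0.0026) and Stt3b (0.58 ± 0.22, adjusted p = 0.0458) overlapped the control range at 18 h, and Rpn2 (0.44 ± 0.16, adjusted p = 0.0272) stayed below it. These 3 calls were lost under TMM, centring, DESeq2 and limma, and those of Rpn2 and Stt3b also without experiment 1 or 2, so they are not among the 17 Ribo-seq calls made under each of the 6 scalings. Without the block, 0 members were called in mRNA-seq and 25 in Ribo-seq.

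Ribosome occupancy of the members did not pass the test in any comparison. At CPA1, at CPA18 and from CPA1 to CPA18, edgeR's interaction of assay and treatment called 0 of 33, against 0.0898%, 0.462% and 0.0770% of all genes in either direction. At such low shares, 0 calls among 33 members do not set them apart from other genes. The median log2 change in occupancy was −0.07 for the members and 0.16 for all genes at CPA1. At CPA18 these medians were −0.20 and 0.03, and from CPA1 to CPA18 −0.05 and −0.12. An unadjusted p under 0.05 was found for 1 member at CPA1 (Rpn2), 2 at CPA18 (Stt3a and Stt3b) and 2 between CPA1 and CPA18 (Stt3a and Srpr), all of them lower. The largest CPA18 difference was that of Stt3a, whose Ribo-seq rise was smaller than its mRNA rise (−0.99 ± 0.32 on the log2 scale, unadjusted p = 0.00249, adjusted p = 0.175). It was lower in all 3 experiments, and DESeq2 called it (adjusted p = 0.0375) while limma did not (adjusted p = 0.585). Stt3b gave −0.77 ± 0.32 (unadjusted p = 0.0199, adjusted p = 0.434). Its normal 95% interval on the log2 scale ran from −1.41 to −0.14, and that of Serp1 from −0.08 to 1.17.

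To see whether the members share known stress elements near their start sites, RefSeq promoter windows of GRCm38.p6 (250 bases before to 50 after the start) were searched on both strands. Windows were found for 26 of the 35 members, and none for Srp19, Srp68, Sec61a1, Tram1, Ssr2, Spcs3, Sec11c, Ostc and Tusc3. The ER stress element (CCAAT, 9 bases, CCACG) was in no member window and in 0.119% of all 32851 windows. Its type II form (ATTGG, 1 base, CCACG) was in the window of 1 member, Krtcap2, and in 0.0365% of all windows. The core TGACGTG of the unfolded protein response element was in 1 member window, that of Srpr, and in 2.01% of all. The amino acid response element, TGATG followed directly by CAAT, was in none and in 0.192% of all. The letters CCACG alone, a part of both stress elements and searched in addition to the planned motifs, were in the windows of 17 of the 26 members and in 32.8% of all windows. The 2 values are not alike. A member was counted if any of its windows matched (28 windows for 26 members), and the share is of single windows, whether or not the gene had reads. Shown here, 5′ to 3′ on the plus strand with the match in capitals, are the 2 matches, since both genes rose after CPA18. The first covers chr9:35211143-35211202, up to the base before the annotated start of Srpr, with the match at 13 to 7 bases before it. The second covers chr3:89246480-89246509, within the transcribed part of Krtcap2, with the match at bases 18 to 28 of the transcript from one of its annotated starts.
Srpr: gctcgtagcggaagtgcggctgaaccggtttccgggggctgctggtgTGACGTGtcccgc
Krtcap2: agggacacggATTGGACCACGgacggggcg
A match is a run of letters and not a shown binding site, and windows of this length do not cover distal elements.

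Other genes that serve the same route were described from a list of 68, of which 61 were tested. After CPA18, 32 rose in mRNA-seq and 30 in Ribo-seq, with none called lower in either, against the 25.9% and 24.6% of all genes that rose. In the synthesis of the lipid-linked oligosaccharide that OST transfers, 14 of 23 tested genes rose in mRNA-seq and 12 in Ribo-seq. They included Alg12, a mannosyltransferase (2.64 ± 0.35 in mRNA-seq, adjusted p = 1.29e-09; 2.13 ± 0.38 in Ribo-seq, adjusted p = 5.47e-07), and Dpagt1, which starts the glycan (1.91 ± 0.34 and 1.71 ± 0.37, adjusted p = 3.28e-06 and 7.37e-05). The smallest mRNA value of that list was Alg10b (−0.58 ± 0.38, adjusted p = 0.233). Among other OST and translocon subunits, 6 of 12 rose in mRNA-seq and 8 of 12 in Ribo-seq, led on ribosomes by Ccdc47, a subunit of the multipass translocon (2.21 ± 0.25, adjusted p = 1.72e-15). Of glycan trimming and calnexin cycle genes 4 of 7 rose in each assay, among them Calr (1.53 ± 0.26 and 1.36 ± 0.15, adjusted p = 1.77e-06 and 5.13e-16), whereas the related chaperone Canx was at −0.56 ± 0.24 and −0.17 ± 0.16 (adjusted p = 0.0583 and 0.443). The ER membrane complex, an insertase, had 4 of 10 higher in mRNA-seq and 2 of 10 in Ribo-seq, and the tail-anchor pathway 4 and 3 of 7. Of the 2 copies Srp54b and Srp54c, none passed in mRNA-seq and 1 in Ribo-seq. After CPA1, 0 of these 61 genes were called in mRNA-seq and 6 fell in Ribo-seq, against 0.719% called and 2.78% lower among all genes.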

How the data were processed

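Per the labels and the study's methods, poly(A) mRNA and RNase-protected monosome fragments were sequenced from MIN6 cells in 3 experiments, giving 18 libraries in 6 groups of 3. The authors filtered short reads, aligned them with Bowtie2 (version not given in the sources used here) to the GRCm38.p6 RNA reference and deposited raw counts per RefSeq transcript. The authors also deposited RPKM, which scales each count by transcript length and by all aligned reads of the library, so an abundant transcript lowers all others. Short reads cannot separate near-identical copies.

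Counts of 30741 transcripts were summed per gene (30232 matched RefSeq with their version, 478 without it and 31 not at all). Genes with reads in all 18 libraries (7794) were tested with edgeR 4.0.16 in R 4.3.3 by its quasi-likelihood test, with the total count as library size and the experiment as a block, fitting the 9 libraries of an assay together. Occupancy was the interaction of assay and treatment over all 18 libraries. The Benjamini-Hochberg adjustment ran over these 7794 genes, with 0.05 as threshold; SE is the log2 change divided by the root of the F statistic. The labels give the replicate number as a batch, which pairs the libraries; same-numbered libraries deviated together (mean r = 0.558 in mRNA-seq, 0.143 in Ribo-seq, 9 pairs each). Totals of 168129 to 4755030 reads set the precision, and a count of 0 was read against 3 reads, for counting error only.

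Two-sided exact permutation tests and figures were made in Python 3.11.15 (scipy 1.17.1, matplotlib 3.10.9, numpy 2.4.6, pandas 2.3.3). Alternatives were DESeq2 1.42.0, limma 3.58.1 on log2(RPKM + 0.5) or log2(RPKM + 1), other library sizes and filters, fewer transcripts per gene, no block, and fewer libraries. Scripts were tested on simulated data. For 2 control libraries of experiment 2 the title and the description name different assays; the title, which matches the column headers, was used. The members and lists were chosen with earlier results of these data known. Values in every library are given for the members with the largest and smallest CPA18 change of each role and assay, for paralogue pairs, and for members called at CPA1 or in occupancy, and also for Srp19, which was outside the main test.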

Additional observations from a re-analysis of the deposited data

Results flagged for a closer look

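A group of values stood out because CPA1 and CPA18 lay on opposite sides of control. The member was lower than control in all 3 experiments after CPA1 and higher in all 3 after CPA18. The difference between CPA18 and CPA1 itself also passed edgeR's adjusted threshold. How many of all genes meet this rule was not counted, so the group cannot be set against a background. In mRNA-seq the group held Ssr2 (log2 difference of CPA18 from CPA1 1.56), Sec11c (1.46), Ddost (1.03) and Ostc (2.03). None of their CPA1 changes against control was called or had an unadjusted p under 0.05. The median of all genes in mRNA-seq was likewise −0.12 at CPA1 and 0.36 at CPA18. In experiments 1, 2 and 3, Lars2 took 45.1%, 7.19% and 15.1% of control mRNA-seq reads and 53.5%, 38.1% and 8.27% after CPA1. Every other value is a share of what remains, so the lower CPA1 values of experiment 2 include this shift. Whether the 4 genes meet the rule without Lars2 in the totals was not tested.

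In Ribo-seq the same held for Srp9 (2.26) and Srprb (1.83) of the targeting genes and for Sec61a1 (1.36) and Sec61g (1.29) of the channel. It held for Ssr1 (1.13), Ssr2 (1.29) and Ssr4 (1.11) of the TRAP complex and for Sec11c of the signal peptidase (1.55). Among OST genes it held for Rpn1 (1.40), Ddost (0.91), Ostc (1.76), Magt1 (1.16) and Krtcap2 (2.22). Of these Ribo-seq members, Ssr1, Ssr4 and Krtcap2 were also called lower at CPA1 against control. All differences use the same CPA1 and CPA18 libraries, and no explanation was tested.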

How the results depend on the processing

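No member changed direction while called under any alternative. With the total count, the block and edgeR, the members called were 0, 21 and 24 in mRNA-seq and 6, 27 and 28 in Ribo-seq for CPA1 against control, CPA18 against control and CPA18 against CPA1, and 0 in occupancy. Without the replicate block (the pairing by experiment), mRNA-seq gave 1 member for CPA18 against control and 0 for CPA18 against CPA1, and Ribo-seq 1 for CPA1; it moved no other count by more than 1.5 times. By limma with a pseudocount of 0.5 or 1, Ribo-seq gave 0 and 0 for CPA1, 15 and 16 for CPA18 and 17 and 18 for CPA18 against CPA1. For CPA18 in Ribo-seq, TMM gave 17, centring on the median gene 17 (14 higher, 3 lower) and DESeq2 14; DESeq2 also gave 17 for CPA18 against CPA1 in Ribo-seq and 1 for occupancy at CPA18. With the disputed control libraries of experiment 2 exchanged, Ribo-seq gave 0, 5 and 11. The cause of these shifts was not tested, and the share of all genes called under these alternatives was not counted. Leaving out libraries gave 0 for CPA1, 16 to 22 for CPA18 and 22 to 25 for CPA18 against CPA1 in mRNA-seq, 2 to 6, 18 to 27 and 22 to 28 in Ribo-seq, and 0 in occupancy. Leaving Lars2 out of the totals with Ins1 and Ins2, and leaving out the control mRNA-seq library of experiment 1, were chosen after seeing the data. Depth limits the Ribo-seq and occupancy results most in experiments 1 and 2 at CPA18.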
